A study of Mus musculus with 24 samples.

Results

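The genes described here encode synaptic and axonal adhesion proteins: the neurexins Nrxn2 and Nrxn3, the neuroligins Nlgn1, Nlgn2 and Nlgn3, the contactin-associated proteins Cntnap1 and Cntnap2, the leucine-rich repeat protein Slitrk2 and the adhesion G protein-coupled receptor Adgrb2. They were taken by name, as the probe sets of the Mouse 430 2.0 array whose single annotated symbol is one of these 9 genes. This gave 21 of 45037 probe sets and 9 of 18193 gene symbols. Of the 21 probe sets, 14 reached a log2 value of 4 in at least 6 of the 24 arrays, and these covered 8 of the 9 genes.

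The arrays measured cortical RNA of male FVB mice taken 7 days after birth. There were 4 groups of 6 arrays: Fmr1 KO polyribosomal, WT polyribosomal, Fmr1 KO total and WT total RNA. Fmr1 KO mice are knockouts of Fmr1, which encodes the RNA-binding protein FMRP, and were littermates of the WT mice. Each lysate was a pool of cortices from 2 mice with the white matter removed, and gave 1 array of total RNA and 1 of the gradient fractions whose mRNAs carried 6 or more ribosomes.

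Neurexins are presynaptic receptors that bind neuroligins and other partners across the synaptic cleft, and the pairing helps to organise both sides of the synapse. Neuroligin 1 is found mainly at excitatory synapses, neuroligin 2 mainly at inhibitory ones and neuroligin 3 at both. Contactin-associated proteins hold axonal domains next to the nodes of Ranvier, Slitrk proteins bind presynaptic receptor tyrosine phosphatases, and many of these genes have been linked to autism. FMRP binds many neuronal mRNAs and is found on polyribosomes, and the study asked how its loss changes the mRNAs found there.

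In the RefSeq annotation (GRCm38.p6), Nrxn2 is on chromosome 19, Nrxn3 on chromosome 12, Nlgn1 on chromosome 3, Nlgn2 and Cntnap1 on chromosome 11, Cntnap2 on chromosome 6 and Adgrb2 on chromosome 4. Nlgn3 and Slitrk2 share the X chromosome with Fmr1. Between Slitrk2 and Fmr1 lie 5 other protein-coding genes, and between Nlgn3 and Fmr1 there are 206. The table of RefSeq transcript starts held 11 starts for 6 of the 9 genes. Nrxn2, Nlgn3 and Cntnap1 had no entry. Probe sets were not placed on transcripts, and a link between the starts and the probe set values was not tested. The windows below are shown for Nrxn3, Nlgn2 and Slitrk2, which had clear values in polyribosomal RNA, and for Cntnap2. Each runs from 20 bases before the start, in lower case, through the first 10 transcribed bases, in capitals.
Nrxn3 start 1, chr12:88794484-88794513, plus strand: ttctctcccttcttcaacagGTCTTTTCTC
Nrxn3 start 2, chr12:88953370-88953399, plus strand: gcaaaatcacgaacaacactGAGGGCGGTA
Nrxn3 start 3, chr12:89812463-89812492, plus strand: gtgcctccccagttgcgcgcACTTTGCTGG
Nlgn2 start 1, chr11:69837775-69837804, minus strand: gggggaggcggccgcgcggtGACGCGCGGG
Cntnap2 start 1, chr6:45060041-45060070, plus strand: ctggcatttcactggctcgcAGAGCAAGAG
Cntnap2 start 2, chr6:47244376-47244405, plus strand: acctgcttttcagtagctcaGAGTTTGATC
Slitrk2 start 1, chrX:66649298-66649327, plus strand: ctgggtagcgagctgctccaGTAAGGATCT
Slitrk2 start 2, chrX:66653139-66653168, plus strand: acagcgcagcttctttctgtTCCAATCCTC
None of the 11 starts opened with a terminal oligopyrimidine stretch, searched on the transcribed strand as a C and then 4 bases that are each C or T, which opens many mRNAs of the translation machinery. Of all 32851 starts in the table, 823 (2.51%) did. Which of the starts is used in these cortices was not measured.

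All 8 neuron markers and all 7 astrocyte markers had a mean log2 value of 4 or more in every group. These markers do not tell cortex from other brain regions. On each array 38.8% to 40.0% of values reached 4. At its brightest probe set Fmr1 itself ran from 5.41 to 6.60 in Fmr1 KO and from 9.63 to 10.27 in WT polyribosomal RNA, and from 6.16 to 6.62 in Fmr1 KO and from 9.41 to 9.93 in WT total RNA. Choroid plexus and meninges markers varied most. The log2 of their summed level had a median of 8.65 (range 5.52 to 12.2) in Fmr1 KO and 11.6 (5.97 to 12.2) in WT polyribosomal RNA, and of 8.27 (5.60 to 11.3) in Fmr1 KO and 10.5 (5.67 to 11.5) in WT total RNA. Their part in the values below was not tested. The number of arrays limits the precision, and in bulk RNA fewer cells of a type and less RNA per cell cannot be told apart.

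The clearest differences among these genes lay between the polyribosomal pool and the lysate. Slitrk2 and Nrxn3 were under-represented on polyribosomes in both genotypes, while Nlgn2 and Nlgn3 leaned the other way and passed the test in Fmr1 KO cortex. The call of Nlgn3 was lost in 8 of 14 alternative runs, which include its other probe sets. Nlgn1, Nrxn2, Adgrb2 and Cntnap2 did not pass in either genotype at their brightest probe sets. Values of a gene are those of its probe set with the highest mean unless another is named, and differences are polyribosomal minus total RNA within a lysate, on the log2 scale. They were tested with limma with the lysate as a block, and p-values were adjusted by the Benjamini-Hochberg method over all probe sets tested, with a threshold of 0.05. In Fmr1 KO, 2 of the 8 genes were higher and 2 lower. Of all genes tested there, 38.7% were higher and 28.2% lower. In WT, 0 of the 8 genes were higher (limma; 1 with an unadjusted p under 0.05) and 2 were lower. Of all genes tested in WT, 37.5% were higher and 28.4% lower. The calls among the 8, at most 2 in a direction, did not exceed these backgrounds, and the 2 lower calls in each genotype lay near them. A low value does not show that an mRNA was poorly translated, because only fractions with 6 or more ribosomes were pooled.

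**Figure D1:**
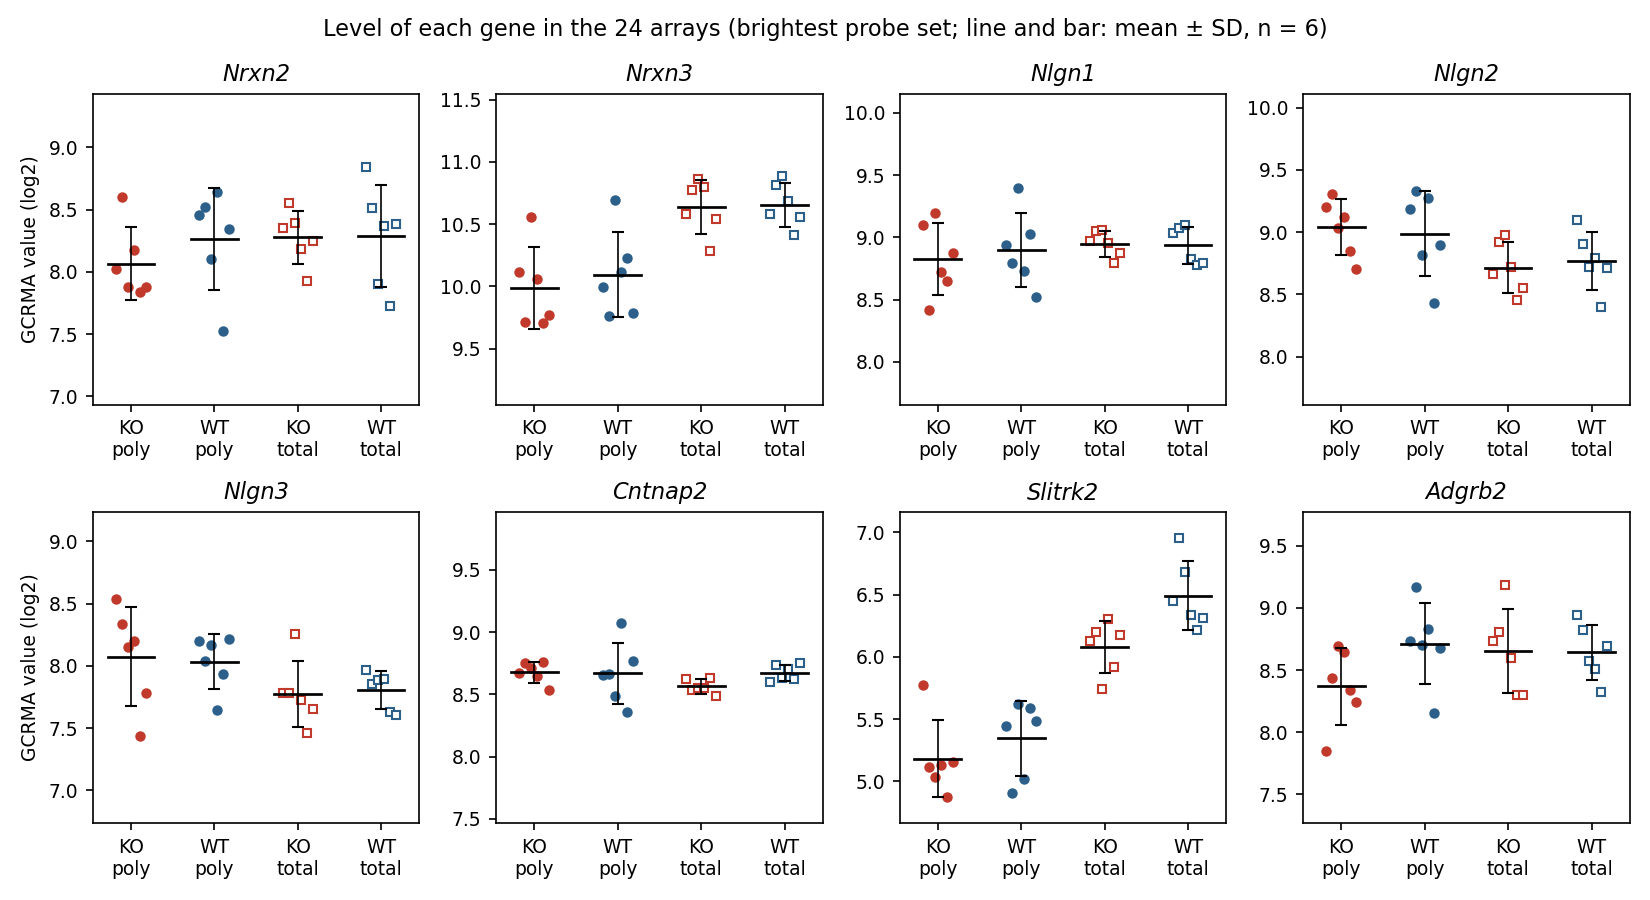
GCRMA values (log2, vertical axes of equal span) of the 8 genes in 6 arrays each of Fmr1 KO polyribosomal, WT polyribosomal, Fmr1 KO total and WT total RNA; points are arrays, lines and bars the mean ± SD. Slitrk2 stands lower in polyribosomal than in total RNA, at means of 5.18 in Fmr1 KO and 5.34 in WT, against 6.08 and 6.49 in total RNA of the same genotypes, and the genotypes overlap for every gene.

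Slitrk2, whose protein sits in the postsynaptic membrane and binds receptor tyrosine phosphatases of the axon, had the lowest values. In Fmr1 KO cortex its level ran from 4.87 over a median of 5.12 to 5.78 in polyribosomal RNA, against 5.74, 6.15 and 6.30 in total RNA. In WT cortex it ran from 4.91 over a median of 5.46 to 5.62 in polyribosomal RNA, against 6.22, 6.39 and 6.95 in total RNA. All 12 lysates had less in the polyribosomal array, and in WT the 2 kinds of array did not overlap. Slitrk2 fell by 0.90 in Fmr1 KO (SE 0.11, limma adjusted p = 2.74e-05), a 1.86-fold difference, and by 1.15 in WT (SE 0.15, adjusted p = 6.26e-05), a 2.21-fold difference. Of all genes tested, 8.93% in Fmr1 KO and 6.32% in WT had lower values. The lysates spread widely, from -1.18 to -0.35 in Fmr1 KO and from -2.04 to -0.62 in WT. Its second probe set lay between 2.35 and 2.68 on all arrays and was not tested.

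Nrxn3, which encodes a neurexin made in many forms by alternative promoters and splicing, was lower on polyribosomes at each of its 3 tested probe sets. At the brightest, 1456137_at, levels in Fmr1 KO cortex were 9.71 at the lowest, 9.92 at the median and 10.56 at the highest in polyribosomal RNA, against 10.28, 10.68 and 10.86 in total RNA. In WT cortex they were 9.76, 10.05 and 10.69 in polyribosomal RNA, against 10.42, 10.63 and 10.89 in total RNA. The 2 kinds of array overlapped, but within its own lysate each polyribosomal array was the lower one, in 12 of 12. The fall was 0.65 in Fmr1 KO (SE 0.10, limma adjusted p = 0.000152) and 0.56 in WT (SE 0.12, adjusted p = 0.00139).

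The size of the Nrxn3 difference depended on the probe set. At 1433788_at levels in Fmr1 KO cortex ran from 8.36 to 9.18 in polyribosomal RNA, against 9.87 to 10.41 in total RNA. In WT cortex they ran from 8.28 to 9.66, against 9.81 to 10.54. In both genotypes the ranges of the 2 kinds of array did not meet. There the value was -1.59 in Fmr1 KO (SE 0.10, limma adjusted p = 1.81e-07), a 3.02-fold difference, and -1.33 in WT (SE 0.16, adjusted p = 3.22e-05), a 2.51-fold difference. The dimmer probe set 1438193_at gave -0.96 in Fmr1 KO and -0.69 in WT. The remaining 2 Nrxn3 probe sets stayed between 2.25 and 3.39 on all arrays and were not tested.

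**Figure D2:**
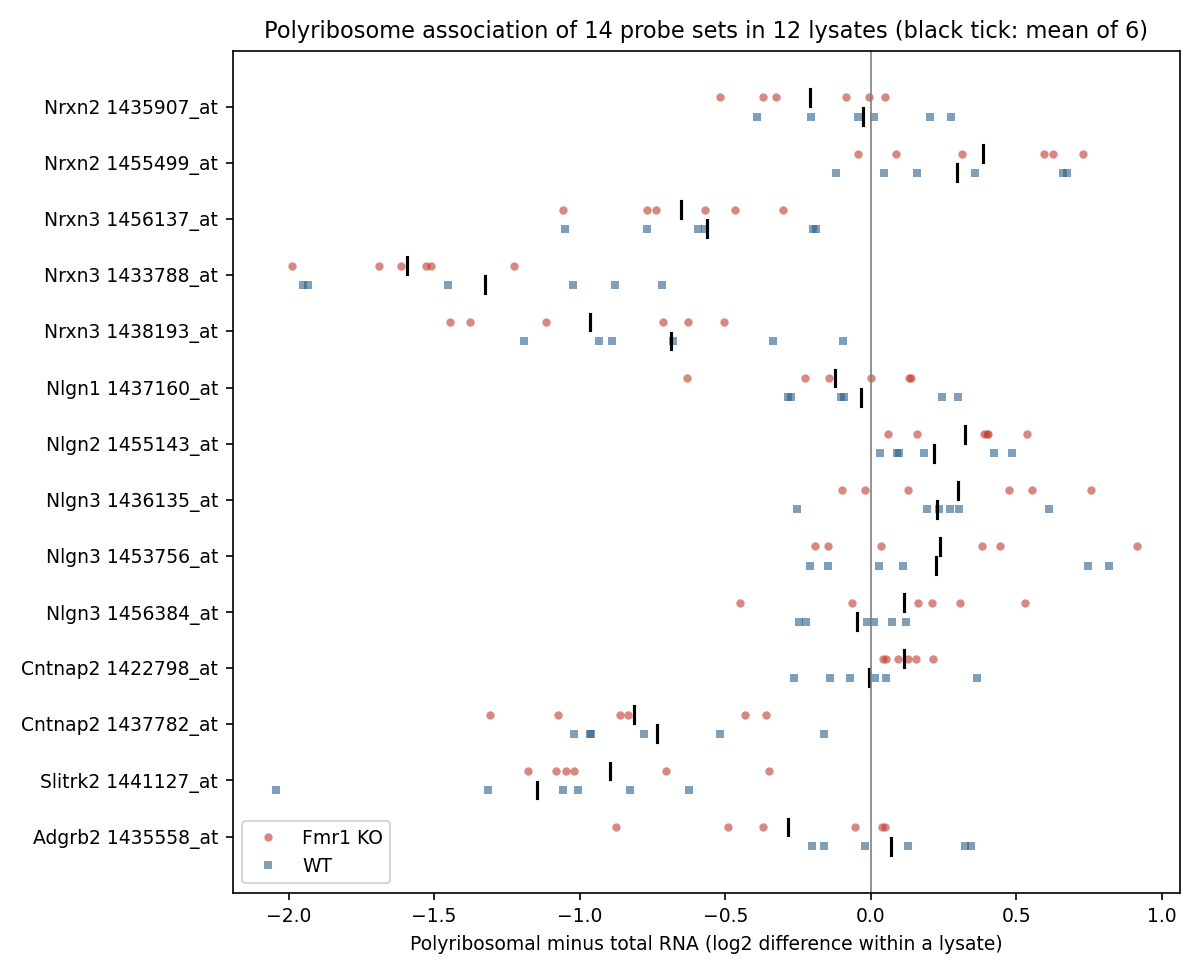
Polyribosomal minus total RNA (horizontal axis, log2 difference within a lysate) for the 14 probe sets measured, with 6 Fmr1 KO lysates (circles, upper row) and 6 WT lysates (squares, lower row) and their means as black ticks. All lysates lie below 0 for Slitrk2, the 3 Nrxn3 probe sets and Cntnap2 1437782_at, while Nlgn2 lies above 0 in all 12.

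Probe sets of one gene were compared directly after their values had been seen, with a two-sided exact sign-flip test over the 12 lysates in 8 pairs of probe sets and p-values adjusted over these 8. The 3 Nrxn3 probe sets differed from each other, and the largest step, between 1456137_at and 1433788_at, was 0.94 ± 0.12 in Fmr1 KO and 0.76 ± 0.26 in WT (SD, n = 6 each; exact p = 0.000488, adjusted p = 0.00130, the same sign in 12 of 12 lysates). This exact p is the smallest that the 4096 sign flips allow.

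Cntnap2, which encodes the Caspr2 protein that gathers potassium channels beside the node, showed as wide a step. At its bright probe set 1422798_at, levels in Fmr1 KO cortex ran from 8.53 to 8.76 in polyribosomal RNA, against 8.48 to 8.63 in total RNA. In WT cortex they ran from 8.36 to 9.07, against 8.60 to 8.75. The differences there were 0.11 in Fmr1 KO (SE 0.07, limma adjusted p = 0.189, higher in 6 of 6 lysates) and -0.01 in WT (SE 0.09, adjusted p = 0.951). At its second probe set, 1437782_at, levels in Fmr1 KO cortex were 3.83, 4.53 and 5.23 (lowest, median and highest) in polyribosomal RNA, against 4.27, 5.38 and 6.10 in total RNA. In WT cortex they were 3.92, 4.59 and 5.21, against 4.55, 5.44 and 5.71. This probe set is dim, and 4 of 6 Fmr1 KO and 5 of 6 WT polyribosomal arrays reached 4. It fell by 0.81 in Fmr1 KO (SE 0.12, limma adjusted p = 0.000121) and by 0.73 in WT (SE 0.12, adjusted p = 0.000224). The 2 probe sets differed by 0.93 ± 0.40 in Fmr1 KO and 0.73 ± 0.50 in WT (SD, n = 6 each; exact sign-flip p = 0.000488, adjusted p = 0.00130). A direction for Cntnap2 as a gene therefore depends on the probe set. Its remaining probe set stayed between 3.12 and 3.68 and was not tested.

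Nrxn2, the other neurexin, had probe sets on opposite sides of 0. The bright 1435907_at had levels of 7.84, 7.95 and 8.60 (lowest, median and highest) in Fmr1 KO polyribosomal RNA, against 7.93, 8.30 and 8.55 in Fmr1 KO total RNA. In WT it had 7.52, 8.40 and 8.64 in polyribosomal RNA, against 7.73, 8.38 and 8.84 in total RNA. All of these ranges overlapped, and the differences were -0.21 in Fmr1 KO (SE 0.09, limma adjusted p = 0.0686) and -0.03 in WT (SE 0.10, adjusted p = 0.834). At 1455499_at it rose by 0.38 in Fmr1 KO (SE 0.11, limma adjusted p = 0.00978) and by 0.30 in WT (SE 0.12, adjusted p = 0.0414), higher in 5 of 6 lysates of each genotype. The step between the 2 probe sets was -0.59 ± 0.21 in Fmr1 KO and -0.32 ± 0.41 in WT (SD, n = 6 each; exact sign-flip p = 0.00244, adjusted p = 0.00488). The bright probe set passed as lower in Fmr1 KO without the second lysate (limma adjusted p = 0.0402) and with array weights (adjusted p = 0.0366).

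Among the neuroligins, Nlgn2, the adhesion protein of inhibitory synapses, was higher on polyribosomes in every lysate. Its levels in Fmr1 KO cortex were 8.71, 9.08 and 9.31 in polyribosomal RNA, against 8.45, 8.69 and 8.97 in total RNA (lowest, median and highest). In WT cortex they were 8.43, 9.04 and 9.33, against 8.40, 8.76 and 9.10. The ranges overlapped, yet all 12 lysates had the higher value in the polyribosomal array. Nlgn2 rose by 0.32 in Fmr1 KO (SE 0.09, limma adjusted p = 0.00592). In WT it stood at 0.22 (SE 0.09, adjusted p = 0.0521). Of all genes tested, 31.4% in Fmr1 KO and 39.1% in WT had higher values than Nlgn2. WT Nlgn2 passed without WT lysate 5 (adjusted p = 0.0478). Its other probe set lay between 2.42 and 2.83 and was not tested.

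Nlgn3 encodes the neuroligin found at both kinds of synapse. Its levels in Fmr1 KO cortex were 7.44, 8.18 and 8.54 in polyribosomal RNA, against 7.46, 7.75 and 8.25 in total RNA. In WT cortex they were 7.65, 8.10 and 8.22, against 7.61, 7.87 and 7.97. The ranges overlapped in both genotypes. Nlgn3 rose by 0.30 in Fmr1 KO (SE 0.12, limma adjusted p = 0.0418), higher in 4 of 6 lysates, and stood at 0.23 in WT (SE 0.11, adjusted p = 0.0808), higher in 5 of 6. Higher values were found for 33.3% of all genes tested in Fmr1 KO and 38.4% in WT. The Fmr1 KO call was lost without lysate 1, 2, 4 or 6 (adjusted p = 0.135, 0.110, 0.114 and 0.0535), and without the lysate block (adjusted p = 0.139). It was also lost with no filter. Without WT lysate 4 the WT value was 0.32 (adjusted p = 0.00857). The dimmer probe sets 1453756_at and 1456384_at stood at 0.24 and 0.12 in Fmr1 KO and at 0.22 and -0.05 in WT, none past the threshold. The step from 1436135_at to 1456384_at was 0.18 ± 0.39 in Fmr1 KO and 0.27 ± 0.18 in WT (SD, n = 6 each; exact sign-flip p = 0.0264, adjusted p = 0.0352, the same sign in 10 of 12 lysates). Over the 12 lysates the Nlgn3 value thus depends on the probe set. In Fmr1 KO, where the rise was called, the step lay within the spread between lysates. The other 2 pairs of Nlgn3 probe sets did not pass (adjusted p = 0.712 and 0.163).

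Nlgn1, the neuroligin of excitatory synapses, had levels of 8.42, 8.80 and 9.20 in Fmr1 KO polyribosomal RNA, against 8.79, 8.96 and 9.06 in Fmr1 KO total RNA. In WT it had 8.52, 8.87 and 9.39 in polyribosomal RNA, against 8.78, 8.93 and 9.10 in total RNA. The polyribosomal arrays spread on both sides of the total arrays. Its differences were -0.12 in Fmr1 KO (95% interval -0.35 to 0.11) and -0.04 in WT (95% interval -0.26 to 0.19). Its other probe set lay between 1.51 and 1.96.

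Adgrb2, a relative of the receptor BAI1, had levels of 7.85, 8.39 and 8.69 in Fmr1 KO polyribosomal RNA, against 8.30, 8.66 and 9.19 in Fmr1 KO total RNA. In WT it had 8.16, 8.72 and 9.16 in polyribosomal RNA, against 8.32, 8.63 and 8.94 in total RNA. The ranges overlapped in both genotypes. It stood at -0.28 in Fmr1 KO (SE 0.12, limma adjusted p = 0.0584) and at 0.07 in WT (SE 0.10, adjusted p = 0.553). The Fmr1 KO value passed without lysate 4 (-0.35, adjusted p = 0.0410) or lysate 5 (-0.35, adjusted p = 0.0352). Cntnap1, which encodes the Caspr protein of the junctions beside the node, had 1 probe set, at 1.73 to 2.22 on all 24 arrays. No value of it could be read above the dim-probe limit.

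Ordered by the mean difference over the 12 lysates, the genes ran from Nlgn2 at 0.27 ± 0.18 and Nlgn3 at 0.26 ± 0.30 through Cntnap2 at 0.05 ± 0.16, Nlgn1 at -0.08 ± 0.26, Adgrb2 at -0.11 ± 0.35 and Nrxn2 at -0.12 ± 0.25 to Nrxn3 at -0.61 ± 0.29 and Slitrk2 at -1.02 ± 0.42 (SD, n = 12). Neighbours in this order were compared after it had been seen, with exact sign-flip tests adjusted over 7 pairs. The step from Nrxn2 to Nrxn3 (0.49 ± 0.42, exact p = 0.00391, adjusted p = 0.0137) and that from Nrxn3 to Slitrk2 (0.41 ± 0.33, exact p = 0.00244, adjusted p = 0.0137) passed. Within the first 6 genes, no step between neighbours passed (exact sign-flip adjusted p = 0.215 to 0.931). Genes further apart in the order were not compared. As probe sets of Nrxn2, Nrxn3, Nlgn3 and Cntnap2 differed, the order holds for the probe sets used.

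The next comparison asked whether the polyribosomal level of these mRNAs differed without FMRP. None of the 8 genes passed in polyribosomal RNA (limma; 0 with an unadjusted p under 0.05), where 0.0103% of all genes tested were called, which was Fmr1 alone. The value furthest from 0 was that of Adgrb2, whose levels were 7.85, 8.39 and 8.69 in Fmr1 KO, against 8.16, 8.72 and 9.16 in WT. The genotypes overlapped, and Adgrb2 stood at -0.34 (95% interval -0.69 to 0.01, unadjusted p = 0.0548, limma adjusted p = 1.00). Nrxn2 stood at -0.20 (95% interval -0.58 to 0.19), Slitrk2 at -0.16 (-0.51 to 0.18), Nrxn3 at -0.11 (-0.48 to 0.26) and Nlgn1 at -0.07 (-0.40 to 0.26). Nlgn2 stood at 0.05 (95% interval -0.28 to 0.38), Nlgn3 at 0.04 (-0.32 to 0.40) and Cntnap2 at 0.01 (-0.23 to 0.25). With 6 arrays a group these intervals reached 0.24 to 0.38 to each side of the estimate.

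**Figure D3:**
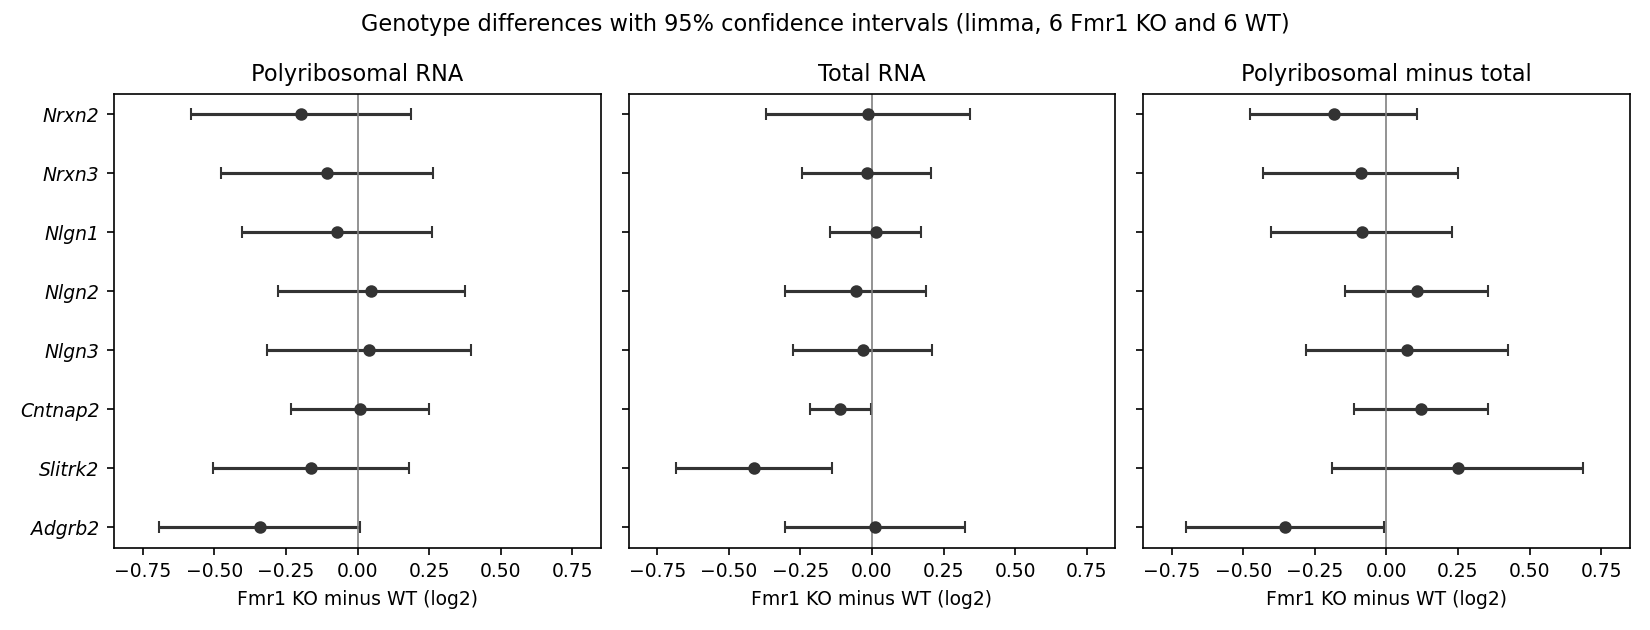
Fmr1 KO minus WT (horizontal axes, log2) for the 8 genes in polyribosomal RNA, in total RNA and in the polyribosomal minus total difference, as limma estimates with 95% confidence intervals (6 Fmr1 KO and 6 WT). Slitrk2 in total RNA, at -0.41, and Adgrb2 in the right panel, at -0.35, lie furthest from 0, and neither passed after adjustment.

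In total RNA none of the 8 passed either (limma; 2 with an unadjusted p under 0.05). Of all 9690 genes tested there, 0.0413% passed and 489 had an unadjusted p under 0.05. Among the 8, the 2 with such a p were Slitrk2 and Cntnap2. Slitrk2 levels were 5.74, 6.15 and 6.30 in Fmr1 KO, against 6.22, 6.39 and 6.95 in WT, so that the highest Fmr1 KO arrays met the lowest WT arrays. Slitrk2 stood at -0.41 (95% interval -0.68 to -0.14, limma adjusted p = 0.837), and Fmr1 KO had the lower value in 6 of 6 pairs of equal number. With a replicate block it stood at -0.41 (adjusted p = 0.404). Its X-linked relative Slitrk4, with 8 protein-coding genes between it and Fmr1, stood at -0.06 (SE 0.14). Cntnap2 levels were 8.48, 8.55 and 8.63 in Fmr1 KO, against 8.60, 8.67 and 8.75 in WT. The ranges met at their ends. It stood at -0.11 (95% interval -0.22 to -0.005, limma adjusted p = 0.982), and its dimmer probe set 1437782_at at 0.01. The other 6 genes lay between -0.06 and 0.01, and the narrowest interval was that of Nlgn1 (-0.15 to 0.17).

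The interaction test asked whether polyribosome association itself differed between genotypes. No gene passed among the 8 (limma; 1 with an unadjusted p under 0.05) or among all 9955 tested (0%; 233 with an unadjusted p under 0.05). Adgrb2 was that 1. Its polyribosomal minus total difference was -0.28 ± 0.37 in Fmr1 KO and 0.07 ± 0.24 in WT (SD, n = 6 each). The Fmr1 KO lysates ran from -0.88 to 0.05 and the WT lysates from -0.20 to 0.34, so they overlapped. The difference of -0.35 (95% interval -0.70 to -0.01, unadjusted p = 0.0462) had a limma adjusted p = 0.999, and 0.392% of all genes tested had a lower value. It ran from -0.42 to -0.23 when single lysates were left out. For Slitrk2 the difference was 0.25 (95% interval -0.19 to 0.69) and for Nrxn2 -0.18 (-0.47 to 0.11). Nlgn2, which passed in Fmr1 KO and not in WT, gave 0.11 (95% interval -0.15 to 0.36) and Nlgn3 0.07 (-0.28 to 0.42). Their polyribosome association was thus not shown to differ between the genotypes.

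Genes of the same families and their partners held members on both sides. Of 7 other neurexin-family, Slitrk and Adgrb genes measured, 2 were higher and 2 lower on polyribosomes in each genotype. The shares of all genes tested, the background for this and every list below, were 38.7% higher and 28.2% lower in Fmr1 KO. In WT they were 37.5% and 28.4%. Adgrb1, which encodes BAI1, rose by 0.37 in Fmr1 KO and 0.29 in WT, and Slitrk1 by 0.28 and 0.25. Cntnap5a fell, at -0.96 in Fmr1 KO and -0.69 in WT, and so did Slitrk4, at -0.73 and -0.71. In the Slitrk family, Slitrk1 thus rose while Slitrk2 and Slitrk4 fell in both genotypes. Slitrk5 did not pass in either, at 0.11 in Fmr1 KO and 0.02 in WT. Each gene in this and the lists below was read at 1 probe set, its brightest. The list medians were 0.03 in Fmr1 KO and 0.02 in WT, beside 0.09 in each genotype for all genes tested.

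Ligands of neurexins followed. Of 17 measured, 2 were higher and 7 lower in Fmr1 KO, and 4 were higher and 6 lower in WT (list medians -0.09 and 0.00). The secreted ligand gene Cbln4 rose by 0.54 in Fmr1 KO and 0.37 in WT, and Nxph1, a neurexophilin gene, by 0.30 and 0.25. The calsyntenin gene Clstn3 fell, at -0.50 in Fmr1 KO and -0.62 in WT. The postsynaptic leucine-rich repeat genes Lrrtm2 and Lrrtm1 fell, at -0.55 and -0.40 in Fmr1 KO and at -0.50 and -0.32 in WT.

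Of 12 intracellular partners and neuroligin inhibitors, 4 were higher and 4 lower in Fmr1 KO, and 3 higher and 5 lower in WT (list medians 0.01 and -0.01). Apba2, an adaptor that binds neurexin tails, rose by 1.10 in Fmr1 KO and 1.19 in WT. The PDZ protein genes Sdcbp and Magi1 rose by 0.47 and 0.34 in Fmr1 KO and by 0.41 and 0.29 in WT. Lin7a, another PDZ protein gene, fell, at -1.28 in Fmr1 KO and -1.57 in WT. Mdga2, whose protein blocks neuroligins from binding neurexins, fell, at -1.33 and -1.25. Dlg4, the gene of the postsynaptic scaffold PSD-95, fell, at -0.60 and -0.89.

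The receptor tyrosine phosphatase genes listed had members on both sides. With their ligands, 2 of 12 genes were higher and 6 lower in each genotype (list medians -0.25 in Fmr1 KO and -0.20 in WT). Ptprd fell, at -1.28 in Fmr1 KO and -1.08 in WT, as did its postsynaptic ligand gene Il1rapl1, at -1.34 and -1.29, and Lrfn3, at -0.55 and -0.60. Ptprs rose by 0.23 in Fmr1 KO and 0.35 in WT, and Ptprf by 0.36 and 0.48.

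Contactins and node partners, the company of Cntnap1 and Cntnap2, had the lowest median of the 6 lists. Of 12 measured, 1 was higher and 8 lower in Fmr1 KO, and 2 were higher and 8 lower in WT (list medians -0.44 and -0.34). All genes tested had shares of 38.7% higher and 28.2% lower in Fmr1 KO, and 37.5% and 28.4% in WT. Ank3, which encodes the ankyrin of nodes and axon initial segments, fell, at -1.66 in Fmr1 KO and -1.33 in WT. The contactin genes Cntn4 and Cntn5 fell, at -1.02 and -0.77 in Fmr1 KO and at -0.97 and -0.66 in WT. Kcna1, a potassium channel gene, rose by 0.40 in Fmr1 KO and 0.25 in WT.

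**Figure D4:**
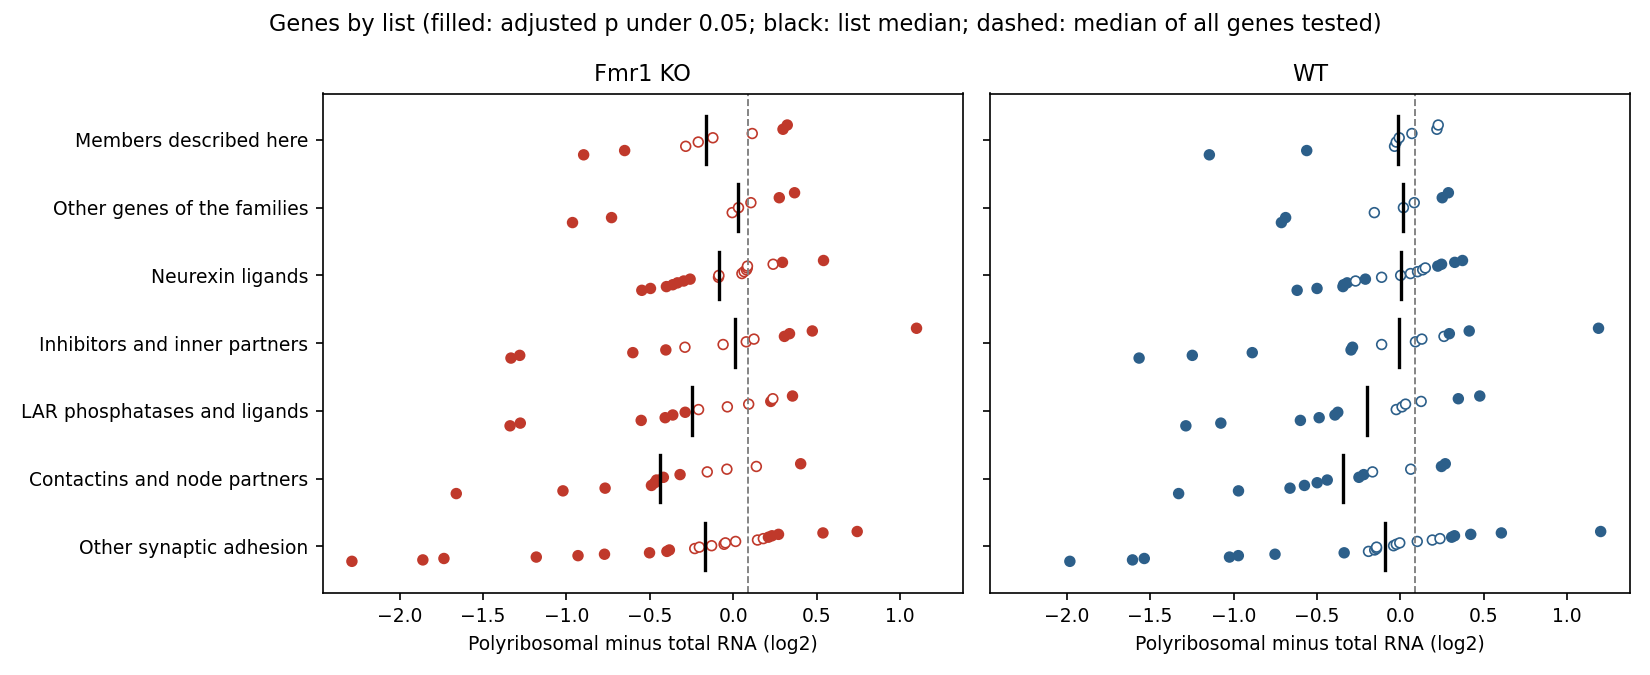
Polyribosomal minus total RNA (horizontal axes, log2) of each gene measured in the 9 genes described here and 6 lists of related genes, in Fmr1 KO and in WT cortex. Filled points passed the limma test at an adjusted p under 0.05, black lines are list medians and the dashed line is the median of all genes tested (0.09 in each genotype).

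Among 22 other synaptic adhesion genes, 5 were higher and 9 lower in Fmr1 KO, and 5 higher and 7 lower in WT (list medians -0.17 and -0.09). The teneurin genes Tenm1 and Tenm2, whose proteins bind latrophilins, fell, at -2.29 and -1.86 in Fmr1 KO and at -1.98 and -1.61 in WT. Ncam2, a neural cell adhesion molecule gene, fell, at -1.73 and -1.54. Nectin1 rose by 0.74 in Fmr1 KO and 1.20 in WT, Flrt1 by 0.54 and 0.60, and the ephrin gene Efnb1 by 0.21 and 0.42.

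None of the genes in these 6 lists passed between genotypes in polyribosomal RNA, in total RNA or in the interaction (limma; 3, 2 and 3 of them had an unadjusted p under 0.05). Of all genes tested, 215 of 9664, 489 of 9690 and 233 of 9955 had such a p in these comparisons. In polyribosomal RNA the smallest p among other synaptic adhesion genes was that of L1cam, at -0.43 (SE 0.15, limma adjusted p = 1.00), and among neurexin ligands that of Adgrl2, at -0.23 (SE 0.10, adjusted p = 1.00). In total RNA they were those of Tenm3 at -0.14 and, in the family list, of Cntnap4 at -0.21 (adjusted p = 0.982 each).

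By Pearson's r over the 24 arrays, with 1 probe set per gene and 9954 other genes, the closest profile to Nrxn3 was that of Unc5d (r = 0.957), to Slitrk2 that of Brwd3 (0.943), to Nlgn2 that of Scamp5 (0.936) and to Nlgn3 that of A930009L07Rik (0.908). For Adgrb2 it was Gpr162 (0.884), for Nlgn1 Septin7 (0.839), for Cntnap2 Antkmt (0.812) and for Nrxn2 Tatdn2 (0.799). These are descriptions, since the arrays come in pairs from 12 lysates and share the step between polyribosomal and total RNA. Unc5d, like Nrxn3, had low values on polyribosomes, at -0.75 in Fmr1 KO and -0.58 in WT, and Brwd3, like Slitrk2, stood at -1.07 and -1.01.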

How the data were processed

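RNA of 12 cortical lysates, 6 Fmr1 KO and 6 WT, was measured on 24 Affymetrix Mouse 430 2.0 arrays. Per the submitters' processing notes, the authors computed the deposited log2 values with GCRMA, which corrects background and summarises the probes of a probe set. The log2 scale was judged from the range. The GCRMA version is not given in the sources used here. Of the probe sets, 34945 had 1 symbol, 932 several and 9160 none.

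A probe set entered a test when 6 or more of the arrays in it reached a log2 value of 4. The tests used limma 3.58.1 (R 4.3.3; lmFit, eBayes, two-sided, Benjamini-Hochberg adjustment), which was tested on simulated data. Genes, lists and rules were chosen with earlier results of these data known. Named partners were the 3 largest rises and falls of a list called in both genotypes, or, between genotypes, the smallest p. Replicates were separate pools of mice.

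Total RNA was a part of the lysate put on the gradient. Equal replicate numbers within a genotype were taken to mark one lysate, so the lysate was a block. Residuals of these pairs correlated at 0.156 to 0.474 in Fmr1 KO and at 0.021 to 0.525 in WT. Among the total arrays of its genotype, the own number correlated best for 6 of 6 Fmr1 KO and 5 of 6 WT polyribosomal arrays. Residuals of same-numbered Fmr1 KO and WT arrays correlated at -0.137 to 0.625 in polyribosomal and 0.133 to 0.532 in total RNA, so the numbers paired the total arrays by the rule that every correlation exceed 0.1. The lysate pairs in WT did not all meet that rule. Alternatives were a block of equal Fmr1 KO and WT numbers, no lysate block, the filter, quantile normalization, the prior, array weights, other probe sets and leaving out replicates. Python 3.11.15 and matplotlib 3.10.9 drew the figures.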

Additional observations from a re-analysis of the deposited data

Results flagged for a closer look

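In 56 sets of 6 arrays, 14 probe sets in 4 groups, 2 held an array that stood far from the other 5. Chance flags about 1 in 20 sets, so these 2 are no more than chance gives. Slitrk2 in the first Fmr1 KO polyribosomal array was at 5.78, with the next array at 5.15. Nrxn3 at probe set 1438193_at in the third Fmr1 KO polyribosomal array was at 5.88, with the next at 5.15. Left out with their lysates, the mean polyribosomal minus total difference in Fmr1 KO was -1.01 for Slitrk2, against -0.90 with all lysates, and -1.01 for Nrxn3 1438193_at, against -0.96. No gene described here passed the test for a difference between the genotypes.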

How the results depend on the processing

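The falls of Slitrk2 and Nrxn3 on polyribosomes passed under every alternative run. None of 450 values in the genotype comparisons and the interaction passed under any, the replicate block included. Of 654 values under alternatives, 61 that were not called changed sign. The number of genes higher on polyribosomes was less firm. In WT, 0 were called, against 1 with no filter, 2 with quantile normalization, 1 with array weights, and 0 to 1 when single lysates were left out. In Fmr1 KO, 2 were called, against 1 with no filter, 1 with no replicate block, and 1 to 2 when single lysates were left out. There 2 genes were called lower, against 3 with array weights and 2 to 3 when single lysates were left out. Other probe sets turned the sign of Nrxn2 (0.30 in WT and 0.38 in Fmr1 KO) and of Cntnap2 (-0.81 in Fmr1 KO). In total RNA, 7 probe sets of all genes passed between genotypes, and 4 with the replicate block. The causes were not tested. Dim probe sets leave Cntnap1 unmeasured, and the 95% intervals between genotypes in polyribosomal RNA reached 0.24 to 0.38 to each side.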

Other observations

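Across the 24 arrays, after the mean of each group was removed, the 28 pairs among the 8 genes had Pearson's r from -0.471 to 0.879. The pairs with the highest values, chosen after they were seen, were Nrxn2 with Nlgn2 (r = 0.879) and Nrxn3 with Nlgn1 (r = 0.837), while Nrxn2 with Nrxn3 gave -0.136. The arrays come in pairs from 12 lysates, so these values are descriptions with no p.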
